A study of Mus musculus with 9 samples.

Results

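The mitochondrial ribosomal proteins described here are the 78 genes, of 26214 in the table, whose symbol is Mrpl or Mrps followed by a number and in some by a letter from a to c. Of these, 49 are named Mrpl and 29 Mrps, for the large and the small subunit. All 78 had a mean of at least 10 over the 8 libraries that were tested, a filter that 13601 genes passed. Cells came from male C57Bl/6 mice of 8 to 12 weeks, 1 day after an injection in the quadriceps. ASCs and FAPs, defined next, were sorted on magnetic beads as cells without CD31 and CD45 and with Sca-1. After NaCl there are 3 libraries of ASCs, the stromal cells of subcutaneous adipose tissue, and 2 of FAPs, the fibro-adipogenic progenitors of the quadriceps. After glycerol, which damages muscle fibres, there are 3 libraries of FAPs, called injured FAPs, and 1 of CD31+CD45+ cells, which entered no test. The p-values measure the spread between these samples and not between single mice, since cells of 3 animals were pooled for the replicates.

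Mitochondria translate the few proteins of their own genome on ribosomes whose proteins are all encoded in the nucleus, made in the cytosol and imported. Many of these proteins have counterparts in the bacterial ribosome, and others were added during the evolution of mitochondria and are called mitochondria-specific. Their products make core subunits of the respiratory chain and the ATP synthase, so those complexes depend on a supply of these ribosomes. In stromal progenitors of muscle and fat, which leave rest and divide after damage or adipogenic signals, mitochondrial content is known to change with activation and differentiation.

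The promoters of these genes were compared with all promoters, since most members moved the same way in injured FAPs. RefSeq promoters, from 250 bases before to 50 after the start on GRCm38.p6, were found for 69 of the 78 genes, with 75 starts. Letters known from nuclear genes for mitochondria were searched on both strands, allowing overlaps and counting each motif apart. The NRF1 motif, searched as 10 letters, was in 17.3% of the members' promoters and 4.60% of all 32851. The ETS letters CCGGAAG, read by factors such as GABPA, were in 34.7% against 8.86%. The YY1 motif, of 11 letters, was in 9.33% against 0.986%, and the SP1 letters GGGCGGG in 42.7% against 25.6%. The E-box CACGTG, which MYC can bind, was in 9.33% against 7.15%, but 3 of its 7 matches are starts of Mrpl2 that overlap, so by gene it was in 5 of 69. A match is a description of the letters and does not show that a factor binds there. The 150 bases before the start are shown for 7 genes, 5′ to 3′ on the gene's strand, with matches in capitals. Mrpl18 (SP1, chr17:12916092-12916241, minus strand), Mrps22 (SP1 and ETS, chr9:98601680-98601829, minus) and Mrps18b (SP1, chr17:35916441-35916590, minus) had the 3 largest rises in injured FAPs against FAPs. Mrpl32 (NRF1, chr13:14613038-14613187, minus) had the largest rise in ASCs against FAPs, and Mrpl22 (ETS, chr11:58171514-58171663, plus) the largest fall. Mrps27 (ETS, chr13:99344636-99344785, plus) was called in opposite directions in ASCs and in injured FAPs. Mrps11 (YY1 and SP1, chr7:78782981-78783130, plus) shares its promoter window with another member, Mrpl46, by RefSeq starts.
Mrpl18: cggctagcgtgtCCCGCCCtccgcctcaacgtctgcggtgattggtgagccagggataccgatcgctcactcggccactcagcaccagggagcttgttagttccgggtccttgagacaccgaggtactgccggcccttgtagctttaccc
Mrps22: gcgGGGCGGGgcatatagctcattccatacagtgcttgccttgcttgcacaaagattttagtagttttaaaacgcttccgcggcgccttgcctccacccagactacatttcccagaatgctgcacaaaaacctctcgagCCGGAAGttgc
Mrps18b: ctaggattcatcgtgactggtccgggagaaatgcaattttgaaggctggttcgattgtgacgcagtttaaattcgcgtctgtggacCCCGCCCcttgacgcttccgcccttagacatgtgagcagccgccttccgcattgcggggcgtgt
Mrpl32: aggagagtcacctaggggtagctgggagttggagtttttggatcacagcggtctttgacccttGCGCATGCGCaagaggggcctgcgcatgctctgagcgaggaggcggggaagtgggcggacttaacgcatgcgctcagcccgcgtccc
Mrpl22: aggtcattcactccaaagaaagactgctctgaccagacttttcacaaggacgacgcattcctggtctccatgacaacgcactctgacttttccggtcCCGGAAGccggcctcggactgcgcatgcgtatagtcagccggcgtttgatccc
Mrps27: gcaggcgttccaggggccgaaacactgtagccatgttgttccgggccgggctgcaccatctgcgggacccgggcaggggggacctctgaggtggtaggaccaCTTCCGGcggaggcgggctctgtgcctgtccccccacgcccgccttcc
Mrps11: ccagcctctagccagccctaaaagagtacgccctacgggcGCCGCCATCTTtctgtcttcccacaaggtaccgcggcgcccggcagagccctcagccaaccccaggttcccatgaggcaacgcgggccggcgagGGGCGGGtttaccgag

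Mrpl46, of the large subunit, and Mrps11, of the small subunit, start 42 bases apart on opposite strands of chromosome 7, at 78783089 and 78783131. The stretch printed for Mrps11 therefore holds the start of Mrpl46, and its capitals lie before Mrps11 and, in part, inside Mrpl46. Mrpl46 was at 137, 94.0 and 57.7 in ASCs, 67.5 and 59.3 in FAPs and 107, 139 and 133 in injured FAPs. Mrps11 was at 125, 206 and 129 in ASCs, 187 and 184 in FAPs and 321, 309 and 333 in injured FAPs. Both were high in injured FAPs against FAPs and differed in ASCs, where replicate 1 was the highest library for Mrpl46 and the lowest for Mrps11. Against FAPs the log2 fold change after injury was 0.98 for Mrpl46 (adjusted p = 0.0196) and 0.79 for Mrps11 (adjusted p = 0.00748), and both passed the test defined with that comparison further on. In GENCODE, which was used for positions, the gene bodies of the pair overlap, at 78775236 to 78783531 and 78783119 to 78792989, so the pair is not in the count of neighbours given further on. The pair was chosen after its values were seen.

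Calls in injured FAPs were then counted by motif. Of the members with an NRF1 match 10 of 13 were higher than in FAPs, of those with an ETS match 20 of 26, with SP1 22 of 29, with YY1 5 of 7 and with an E-box 3 of 5. Of the members with none of these letters 9 of 12 were higher, beside 56 of all 78 members and 24.9% of all tested genes. The median log2 fold changes of these groups lay between 0.74 and 0.87, and no difference between them was tested.

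The deposited values are gene counts divided by a size factor per library, and are called values here. The reads on genes were 27481573, 27349184 and 27402102 in ASCs, 24052508 and 24164447 in FAPs, 26968235, 26698572 and 27028114 in injured FAPs and 13091077 in the CD31+CD45+ library. The fewest reads on any member in a library were 35, so no member was near 0 anywhere. A value of 2.29 to 4.71 stands for 3 reads, depending on the library. The 78 genes together took 0.0701, 0.0930 and 0.0695% of the reads in ASC replicates 1 to 3, 0.112 and 0.107% in FAPs and 0.203, 0.199 and 0.210% in injured FAPs. All 3 injured FAP libraries were above both FAP libraries, which were above all 3 ASC libraries. In the CD31+CD45+ library the share was 0.127%.

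On the deposited scale the order of ASCs and FAPs was no longer the same. The summed value of the members was 26027 ± 2518 in ASCs (SD, n = 3), 25005 ± 921 in FAPs (SD, n = 2) and 42445 ± 1079.8 in injured FAPs (SD, n = 3). The 100 most abundant genes took 41.3, 40.3 and 43.1% of the reads in ASCs, 35.9 and 36.3% in FAPs and 25.6, 26.1 and 24.7% in injured FAPs. The part of these genes in the changed order was not tested. The median value over the 78 genes was 247, 309 and 261 in ASCs, 269.6 and 249 in FAPs and 496, 475 and 473 in injured FAPs. Injured FAPs were high in all 3 libraries, while ASCs and FAPs overlapped. The CD31+CD45+ library had a median of 282, among the values of ASCs and FAPs. Since the libraries are from bulk RNA, a difference in cell make-up and a difference in RNA per cell cannot be told apart.

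**Figure D1:**
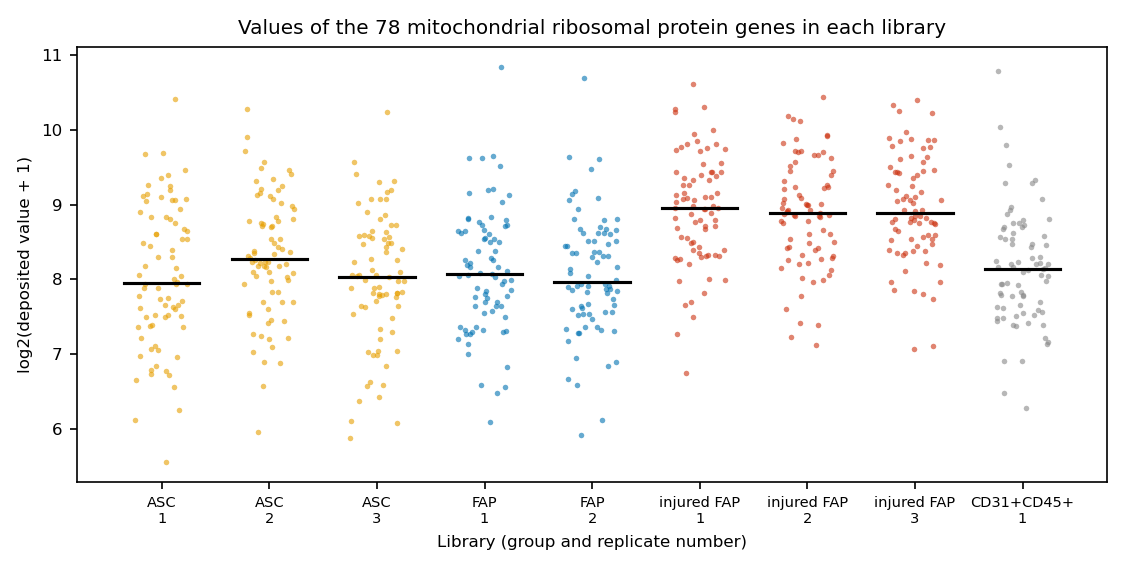
Each point is the log2(value + 1) of 1 of the 78 genes in 1 of the 9 libraries, coloured by group, and the black bar is the median over the genes. The medians of the deposited values were 473 to 496 in injured FAPs and 247 to 309 in the other 6 libraries.

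ASC replicates differed over most of the members. ASC replicate 2 had the highest value of the 3 ASC libraries for 62 of the 78 genes and the lowest for 5, and its share of reads on them was the highest of the group. The coefficient of variation between libraries had a median over the members of 16.4% in ASCs, 7.62% in FAPs and 6.09% in injured FAPs. For 74 of the 78 genes the highest of the 8 libraries was an injured FAP library, and for 50 the lowest was an ASC library. The counts by library in this paragraph cover the members only, with no share of all tested genes beside them.

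Levels between genes are compared per kilobase of the longest annotated protein-coding transcript of each gene, as the mean over the 8 libraries. Which transcript the cells used was not determined, so the order of the levels depends on this choice. Mrpl52 had the highest level, 1994 per kb, followed by Mrpl42 (1206), Mrpl4 (1129), Mrps21 (924) and Mrpl33 (827). Mrpl52 and Mrpl42 are mitochondria-specific proteins of the large subunit, Mrpl4 lines the exit tunnel for the new chain, and Mrps21 and Mrpl33 are small proteins with bacterial counterparts. The lowest levels were those of Mrpl47 (38.3 per kb), Mrps35 (44.1) and Mrpl1 (45.6), whose annotated transcripts are long at 3364, 4162 and 3556 bases. Mrpl1 is the protein of the L1 stalk, which guides spent tRNA out. The order of the members' values was much the same in the 3 groups, with a Spearman rho across the 78 genes of 0.863 for ASCs with FAPs, 0.869 for the injured with the other FAPs and 0.860 for ASCs with injured FAPs. Genes are not independent replicates, and the lengths they share contribute to these values.

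Injured FAPs were compared with FAPs to ask what glycerol injury changed within 1 day. A gene was called by limma where its adjusted p over all 13601 genes was under 0.05 and its log2 fold change exceeded 0.58 in size. Of the 78 genes, 56 were called higher, where 24.9% of all tested genes were, and 0 were called lower, where 27.7% of all genes were. No member was called lower at an unadjusted p under 0.05 with the same fold change threshold either, nor by edgeR or DESeq2 on the recovered reads. The median log2 fold change was 0.81 over the members and −0.05 over all genes tested. All 3 injured libraries lay above both FAP libraries for 77 members and below them for Mrpl4. Of all 13601 genes, 5489 lay above in this way and 5935 below. Scaling each library to a common total gave a median of 0.94, with 0.08 over all genes, and a common 75th percentile gave 0.71, with −0.15 over all genes. The count called higher was 53 to 64 under these scalings and quantile normalization, beside 3012 to 3964 of all 13601 genes.

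Both subunits and both kinds of protein took part. By their place in the ribosome, 34 of 51 large subunit genes and 21 of 26 small subunit genes were called higher. Of the 30 large subunit proteins of bacterial type 20 were higher, with a median log2 fold change of 0.96. Of the 21 mitochondria-specific ones 14 were higher, with a median of 0.74. In the small subunit 13 of 16 proteins of bacterial type (median 0.80) and 8 of 10 mitochondria-specific ones (median 0.74) were higher. The summed value of large subunit genes was 2.72, 2.61 and 2.64 times that of small subunit genes in ASCs, 2.71 and 2.46 times in FAPs and 2.48, 2.45 and 2.44 times in injured FAPs. The ratio of injured FAPs overlapped that of FAPs.

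**Figure D2:**
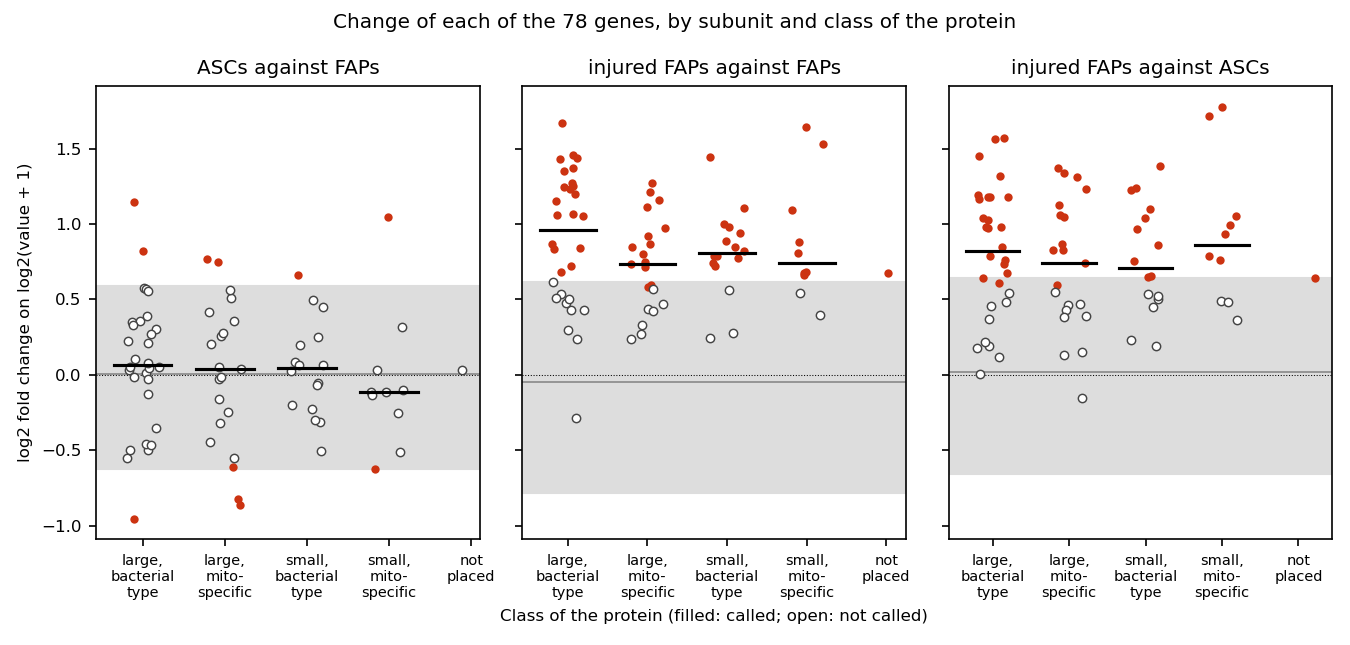
Log2 fold change of each of the 78 genes on log2(value + 1) in the 3 comparisons, by subunit and class of the protein. Filled points are called, open points are not, black bars are class medians, and the grey line and band are the median and quartiles of all tested genes. In injured FAPs against FAPs the class medians are 0.74 to 0.96, above the all-gene median of −0.05. In ASCs against FAPs they lie between −0.11 and 0.06, and between −0.68 and −0.50 with a common total per library.

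Mrpl18 belongs to the central protuberance of the large subunit and is the counterpart of the bacterial protein that binds 5S rRNA. Its gene lies on chromosome 17 from 12911349 to 12916345 in GENCODE (mm10, minus strand), and exons of Tcp1 overlap it. The RefSeq start lies inside that span, so the promoter stretch printed for Mrpl18 falls within the GENCODE gene. Mrpl18 was at 179, 274 and 265 in ASCs, 207 and 230.5 in FAPs and 666, 697 and 728 in injured FAPs. All injured libraries were far above the other 5, and ASCs and FAPs overlapped. It had the largest rise of the members (log2 fold change 1.67 with a standard error of 0.182, adjusted p = 2.44e-05). Mrpl15 and Mrpl16, also of bacterial type, lie near the peptidyl transferase centre and its tRNA. Mrpl15 was at 291 and 264 in FAPs and 677, 763 and 863 in injured FAPs, and Mrpl16 at 199 and 159 in FAPs and 489.6, 475 and 486 in injured FAPs. Both were high in all injured libraries with a wide gap (1.46 and 1.44, adjusted p = 2.05e-05 and 1.25e-05). Mrpl12 forms the flexible stalk that recruits translation factors, and the protein also binds the mitochondrial RNA polymerase. It was at 534, 572 and 382 in ASCs, 558 and 408 in FAPs and 1269.5, 1170.2 and 1219.6 in injured FAPs, and rose by a log2 fold change of 1.35 (adjusted p = 1.11e-04). Mrpl10, on which that stalk stands, was at 803 and 798 in FAPs and 1021, 974 and 954 in injured FAPs and was not called (0.30, adjusted p = 0.0751).

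In the small subunit Mrps22, a mitochondria-specific protein altered in an inherited mitochondrial disease, changed most. Its gene lies on chromosome 9 from 98588730 to 98601660 (minus strand). Mrps22 was at 93.5, 136 and 85.4 in ASCs, 112 and 114 in FAPs and 345, 342 and 379.8 in injured FAPs. The injured libraries were the 3 highest, and ASCs overlapped FAPs. The rise against FAPs was 1.64 (standard error 0.203, adjusted p = 5.75e-05). The 6 named rises were those of Mrpl18, Mrps22, Mrps18b, Mrpl15, Mrps18c and Mrpl16, all called under each scaling.

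Mrpl4 was the exception among abundant members. It was at 1359.5, 1246 and 1209 in ASCs, 1842 and 1661 in FAPs and 1565, 1389.6 and 1358 in injured FAPs. Both FAP libraries lay above the 6 of the other tested groups, so its log2 fold change was negative in injured FAPs (−0.29, adjusted p = 0.037) and in ASCs (−0.46, adjusted p = 0.00385), below the fold change threshold in both, though ASCs passed under a common total (−1.03), quantile normalization (−0.71) and a common 75th percentile (−0.67). With no fold change threshold Mrpl4 was the only member called lower in injured FAPs. Mrpl24, which like Mrpl4 sits by the exit tunnel, was at 786 and 786 in FAPs and 899, 944 and 934 in injured FAPs, a small gap that did not pass the test (0.24, adjusted p = 0.0561). Mrps21 was at 372 and 448 in FAPs and 545, 481 and 462 in injured FAPs and was not called either (0.28). The 11 members called in none of the 3 comparisons were these 3 and Mrps28, Mrpl9, Mrpl48, Mrpl23, Mrps24, Mrpl27, Mrpl36 and Mrps34. A p that misses the threshold does not show that their levels were equal.

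**Figure D3:**
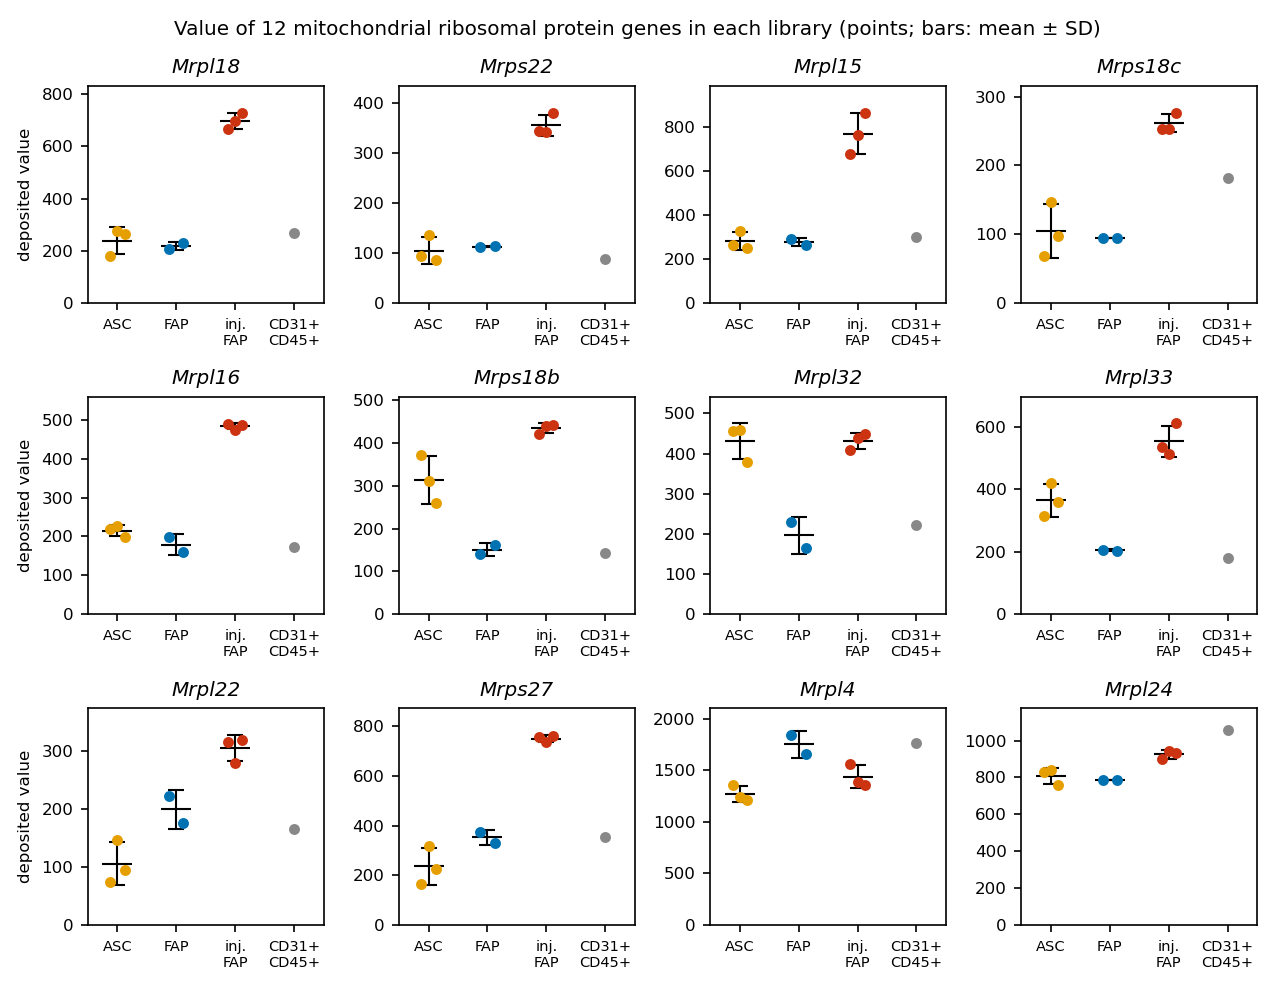
Deposited value of 12 members in each library, with points for libraries and bars for the mean and SD of each replicated group; the y axes start at 0. Mrpl18 and Mrps22 are high in the 3 injured libraries only, Mrpl32 is low in both FAP libraries (228 and 164), and Mrpl4 is, among the replicated groups, highest in FAPs (1842 and 1661).

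The sorted cells also differed in markers of other cells, and these values stand beside the rise. The summed value of 12 leukocyte markers was 259.6 and 485 in FAPs, 911, 3956 and 800.1 in injured FAPs, 673, 559.5 and 551 in ASCs and 36269 in the CD31+CD45+ library. Injured FAP replicate 2 was the highest of the 8, with Lyz2 its most abundant marker, while Cd68 led in the other injured and FAP libraries. In both FAP libraries 10 of the 12 were at 0, among them Ptprc, which encodes CD45. Without injured FAP replicate 2, 55 members were called higher and 0 lower, with a median log2 fold change of 0.83. For 12 endothelial markers the sums were 7209 and 4913 in FAPs, 2353, 2484 and 1972 in injured FAPs and 7364, 5926 and 7761 in ASCs, with Tek or Cdh5 the most abundant. Tek alone was at 5986, 4841 and 6700 in ASCs, most of those sums, and at 2120.5 and 1890 in FAPs. The median over the 12 markers was 242 and 170 in FAPs, 88.3, 107 and 83.1 in injured FAPs and 56.6, 39.6 and 30.8 in ASCs. Emcn, Cldn5, Vwf and Plvap were at 0 in both FAP libraries, and Pecam1, which encodes CD31, in FAP replicate 2. All 5 were above 0 in each injured library. In injured FAPs against FAPs 3 of the 11 tested markers (Emcn, Cldn5 and Plvap) were called higher and 6 lower, beside 24.9% and 27.7% of all genes. For 9 smooth muscle and pericyte markers the sums were 24283 and 21388 in FAPs, 10653, 10285 and 10653 in injured FAPs and 2006, 1428 and 1612 in ASCs, with none at 0. Rgs5 and Acta2 led in FAPs, Cspg4 in injured FAPs and Notch3 in ASCs. By limma 0 of these 9 were called higher and 8 lower in injured FAPs against FAPs. Of 11 tested leukocyte markers 9 were higher and 0 lower there, beside the same shares of all genes. The part of such cells in the changes of the members was not tested.

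Some other cell types of muscle and fat were covered by further lists. For 9 skeletal muscle fibre markers the sums were 895 and 1069 in FAPs, 314, 337 and 260.1 in injured FAPs and 158, 118 and 159 in ASCs, with Acta1 or Tnnt3 the most abundant. Of 6 satellite cell markers Vcam1 was the most abundant, at 2795, 2761 and 2658 in ASCs, 1056 and 953 in FAPs and 4402, 4223 and 4059.9 in injured FAPs, where it was the 1 called higher. Itga7 and Pax7 were called lower there, with 4 of the 6 tested, beside 24.9% of all genes higher and 27.7% lower. Pax7 was at 0 in all 3 ASC libraries and at 31.4 and 65.9 in FAPs and 11.8, 10.8 and 5.34 in injured FAPs. For 6 adipocyte markers they were 1547 and 978 in FAPs, 333, 432 and 319.6 in injured FAPs and 901, 1000.1 and 803 in ASCs, led by Fabp4 or Lipe, with Lep at 0 in FAP replicate 2 and in all injured libraries. The 8 markers of FAPs and ASCs themselves were above 0 in all 9 libraries, led by Col1a1 or Col3a1. Of these 8, 1 was called higher and 5 lower in injured FAPs against FAPs (median −0.80), beside 24.9% and 27.7% of all genes, and 1 higher and 7 lower against ASCs (median −1.44), beside 25% and 25.8%, where a common total gave 4 lower and quantile normalization 2. Between ASCs and FAPs 5 were higher in ASCs and 0 lower (median 0.73), beside 23.4% and 23.8% of all genes, with 2 and 1 under a common total and 1 and 1 under quantile normalization. Counts of all genes under these scalings are given with the comparisons below. Cd34 was at 55027, 42885 and 54644 in ASCs, 32892 and 30696 in FAPs and 11933, 10736 and 11553 in injured FAPs, lowest in the last. Pdgfra was at 10837, 15083 and 13043 in ASCs, 17754 and 17756 in FAPs and 23649, 25268 and 23236 in injured FAPs, and at 119 in the CD31+CD45+ library. Ly6a, which encodes Sca-1, was at 46513, 49855 and 36777 in ASCs, 16542 and 10823 in FAPs and 24309, 21308 and 24855 in injured FAPs, against 17672 there.

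ASCs were compared with FAPs, both from mice given NaCl, as cells of different tissues. Of the 78 genes, 6 were called higher in ASCs, against 23.4% of all tested genes, and 5 lower, against 23.8%. On the deposited scale the share of members called was thus below that of all genes in either direction. The median log2 fold change was 0.04, beside 0.00 over all genes. This split depends on the scaling: 1 higher and 34 lower with a common total per library, 3 and 14 with a common 75th percentile, and 13 and 3 with quantile normalization. Of all 13601 genes, 1592 were higher and 6317 lower with a common total. These were 2452 and 4142 with a common 75th percentile and 3047 and 3004 with quantile normalization. The common total shifts the median of all genes to −0.56 and that of the members to −0.53, and the 75th percentile shifts them to −0.20 and −0.17. Single libraries also moved the counts. Without ASC replicate 2 there were 6 higher and 12 lower, without ASC replicate 3 12 and 3, without ASC replicate 1 4 and 4, without FAP replicate 1 9 and 1, and without FAP replicate 2 6 and 3.

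Of the 6 members higher in ASCs, Mrpl32 had the largest difference. Mrpl32 is a bacterial-type protein of the large subunit that is trimmed by the m-AAA protease of the inner membrane before it is assembled. It was at 456, 458 and 379 in ASCs, 228 and 164 in FAPs and 408, 438 and 448 in injured FAPs. ASCs and injured FAPs overlapped and all lay above FAPs. Mrpl32 rose in ASCs (log2 fold change 1.15 with a standard error of 0.164, adjusted p = 1.83e-04) and kept its call with a common total per library (0.58). Mrpl33, another small bacterial-type protein, was at 314, 421 and 358 in ASCs and 206 and 202 in FAPs, and rose by 0.82 (adjusted p = 9.39e-04). Mrpl50, mitochondria-specific, was at 536, 324 and 355 in ASCs and 235 and 228 in FAPs, with ASC replicate 1 the highest, and rose by 0.77 (adjusted p = 0.00607), but by 0.55 and uncalled without that library. Mrps6, of the small subunit, was at 407, 297 and 330.2 in ASCs and 189 and 246 in FAPs, and rose by 0.66 (adjusted p = 0.00774), uncalled without ASC replicate 1 (0.54) or FAP replicate 1 (0.47). The groups did not overlap for any of these. With a common total per library the other 5 rises lost their call, at 0.48 for Mrps18b, 0.26 for Mrpl33, 0.20 for Mrpl50, 0.18 for Mrps18a and 0.10 for Mrps6. Mrpl50, Mrps18a and Mrps6 lost it with a common 75th percentile too (0.56, 0.54 and 0.45).

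The 5 members lower in ASCs were Mrpl22, Mrpl44, Mrpl49, Mrps27 and Mrpl53. Mrpl22 lines the exit tunnel of the large subunit. It was at 75.1, 147 and 95.4 in ASCs, 223 and 176 in FAPs and 316, 279.8 and 320.3 in injured FAPs. The 3 groups did not overlap, with ASCs low, FAPs between and injured FAPs high. Mrpl22 fell in ASCs (log2 fold change −0.95 with a standard error of 0.254, adjusted p = 0.00819), though it was not called without FAP replicate 1 (−0.78). Mrpl44, which has the fold of an RNase III enzyme, was at 46.1, 61.2 and 66.5 in ASCs, 93.2 and 119 in FAPs and 153, 149.6 and 137 in injured FAPs, again in that order with no overlap. Its log2 fold change in ASCs was −0.86 (adjusted p = 0.00605), uncalled without FAP replicate 2 (−0.69) and with quantile normalization (−0.43). Mrpl49 was at 183, 300.1 and 199.6 in ASCs and 437 and 354 in FAPs (−0.82, adjusted p = 0.00524; −0.67 and uncalled without FAP replicate 1). Mrpl53 was at 108, 118 and 81.6 in ASCs and 156 and 154 in FAPs (−0.61, adjusted p = 0.0173), and lost its call without ASC replicate 3 (−0.46), FAP replicate 1 (−0.60) or FAP replicate 2 (−0.62) and with quantile normalization (−0.22). All 5 stayed called with a common total per library and with a common 75th percentile. Of the abundant members, Mrpl52 and Mrpl24 were not called (0.26 and 0.04), nor was Mrpl4 on the deposited scale.

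Mrps27, a small subunit protein of the pentatricopeptide repeat family, was the only member called in opposite directions against FAPs. It was at 166, 316 and 225 in ASCs, 374 and 330.2 in FAPs and 754, 735 and 760.4 in injured FAPs. ASCs were low with a wide spread, FAPs lay just above the highest ASC library, and injured FAPs were high. The fall in ASCs (log2 fold change −0.62 with a standard error of 0.220, adjusted p = 0.0311) was close to both thresholds. It lost its call with quantile normalization (−0.50), with DESeq2 (−0.57) and without ASC replicate 1 (−0.40), ASC replicate 3 (−0.61), FAP replicate 1 (−0.53), FAP replicate 2 (−0.71) or injured FAP replicate 3 (−0.62). The rise in injured FAPs (log2 fold change 1.09 with a standard error of 0.220, adjusted p = 0.00146) was called under each scaling.

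Injured FAPs were also compared with ASCs directly, using the same libraries as the comparisons with FAPs. Of the 78 genes, 51 were called higher, against 25% of all tested genes, and 0 lower, against 25.8% of all genes by limma. At an unadjusted p under 0.05 with the same fold change threshold, and by edgeR and DESeq2, 0 members were lower. The median log2 fold change was 0.78 over the members and 0.02 over all genes. The 3 injured libraries lay above all 3 ASC libraries for 69 members and below them for Mrps18a. Of all 13601 genes, 4926 lay above in this way and 4838 below. With a common total per library 77 members were higher and the median was 1.47, in a table whose all-gene median moved to 0.71. With a common 75th percentile 60 were higher (median 0.89, all genes 0.13), and with quantile normalization 47 (median 0.66). Of all 13601 genes, 7378 were higher and 1692 lower with a common total. These were 3972 and 3113 with a common 75th percentile and 3421 and 3401 with quantile normalization.

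The 6 largest rises against ASCs were those of Mrps22 (1.78), Mrps27 (1.72), Mrpl22 (1.57), Mrpl18 (1.56), Mrpl15 (1.45) and Mrps18c (1.38) as log2 fold changes. Their adjusted p lay between 7.70e-06 for Mrpl15 and 4.79e-04 for Mrps18c, and all 6 were called under each scaling. Mrps22, Mrpl18, Mrpl15 and Mrps18c had high injured libraries beside overlapping values of ASCs and FAPs on the deposited scale, though Mrps22 was called lower in ASCs with a common total (−0.70). Mrps27 and Mrpl22 had ASC values below those of FAPs, which widened the gap. The abundant Mrpl52 was at 818, 958 and 680.4 in ASCs and 1246, 1114 and 1198 in injured FAPs, with no overlap, and missed the fold change threshold (0.55, adjusted p = 0.00773), though it was called with a common total (1.24), a common 75th percentile (0.66) and quantile normalization (0.59). Mrpl4 and Mrpl24 were not called (0.18 and 0.19), except with a common total per library (0.87 and 0.89).

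Over the 3 comparisons the most frequent pattern was high in injured FAPs alone. There were 38 members called higher in injured FAPs than in both other groups with no call between ASCs and FAPs, a pattern of 9.90% of all tested genes. Of those 38, 19 were called lower in ASCs than in FAPs with a common total per library and 3 with a common 75th percentile. Another 11 were called only against FAPs (2.92% of all genes) and 7 only against ASCs (2.49%). With a common total these were 1 (1.42%) and 5 (5.29%). A common 75th percentile gave 7 (2.21%) and 6 (3.48%), and quantile normalization 9 (2.97%) and 7 (2.9%). Of the 6 members higher in ASCs than in FAPs all were also called higher after injury against FAPs, and 1 of them, Mrpl33, was also higher in injured FAPs than in ASCs (0.61, but 0.49 and uncalled with quantile normalization, and uncalled without ASC replicate 1 or injured FAP replicate 3). Of the 5 lower in ASCs, Mrps27 was called higher in injured FAPs against FAPs and the other 4 only against ASCs. A call in 1 comparison and none in another is no test of the difference between them, and the comparisons share libraries.

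The Mrps18 genes encode 3 related proteins with different places in the ribosome, where bacteria have a single S18. Mrps18c takes the place of bacterial S18, Mrps18b has a place of its own in the small subunit, and Mrps18a lies in the large subunit. Mrps18a was at 674, 719 and 635 in ASCs, 399 and 405 in FAPs and 613, 594 and 617 in injured FAPs. Mrps18b was at 371, 311 and 259.9 in ASCs, 139.8 and 161 in FAPs and 421, 441 and 442 in injured FAPs. Mrps18c was at 68.5, 146 and 97.9 in ASCs, 95.1 and 95.0 in FAPs and 253, 253 and 276 in injured FAPs. ASCs were the highest group for Mrps18a, lay between the others for Mrps18b and overlapped FAPs for Mrps18c, while FAPs were below injured FAPs for all 3. The order of ASCs and injured FAPs for Mrps18a depends on the scaling, at −0.15 on the deposited scale and 0.55 with a common total per library, uncalled in both. Against FAPs the log2 fold changes in ASCs were 0.75, 1.05 and 0.06 in that order (adjusted p = 1.87e-04, 3.35e-04 and 0.853), and Mrps18a and Mrps18b passed, except with a common total per library and, for Mrps18a, a common 75th percentile. In injured FAPs they were 0.59, 1.53 and 1.45 (adjusted p = 7.01e-04, 2.11e-05 and 8.26e-04), and all 3 passed, Mrps18a not with quantile normalization (0.53) or a common 75th percentile (0.50). Per kilobase the levels were 659, 295 and 196.

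Other members with special places or roles were named whatever the size of their change. Mrps30, named for the small subunit but placed in the large one, was at 391, 429 and 339 in ASCs, 287 and 315 in FAPs and 525, 463 and 519 in injured FAPs. The groups did not overlap, and it rose in injured FAPs by 0.74 (adjusted p = 9.04e-04). Mrpl58, a peptidyl-tRNA hydrolase that frees chains from stalled ribosomes, was at 389, 430.4 and 372 in ASCs, 306 and 287 in FAPs and 505, 562 and 536 in injured FAPs. It rose against FAPs in injured FAPs (0.85, adjusted p = 1.59e-04), again with no overlap of the groups. Mrps36, whose product serves in the 2-oxoglutarate dehydrogenase complex and was placed in no subunit class here, was at 180.5, 288 and 225 in ASCs, 243 and 201.3 in FAPs and 336, 357 and 372 in injured FAPs. It passed in injured FAPs against FAPs (0.68, adjusted p = 0.0104), where all injured libraries were higher, but not without FAP replicate 2 (0.54), and passed against ASCs (0.64), but not without ASC replicate 1 (0.48) or with quantile normalization (0.45).

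Mitoribosomal proteins whose symbols fall outside the Mrpl and Mrps names are Dap3, Ptcd3, Gadd45gip1, Aurkaip1 and Chchd1. Dap3, a GTP-binding protein of the small subunit, was at 578, 712 and 654 in ASCs, 582 and 511 in FAPs and 1056, 1039 and 1181 in injured FAPs. The injured libraries were the 3 highest, and ASCs overlapped FAPs. Against FAPs 4 of the 5 were called higher and 0 lower by limma, by edgeR and by DESeq2, with a median of 0.85 over the list, beside 24.9% and 27.7% of all tested genes. The log2 fold changes were 1.00 for Dap3, 0.92 for Ptcd3, which reaches the mRNA channel, 0.85 for Chchd1, 0.82 for Gadd45gip1 of the large subunit and 0.33 for Aurkaip1, which was not called. Against ASCs all 5 were called higher, beside 25% of all genes, with log2 fold changes of 0.59 for Ptcd3, uncalled with quantile normalization, to 1.26 for Gadd45gip1. Between ASCs and FAPs 0 of the 5 were called in either direction by limma, edgeR and DESeq2, beside 23.4% and 23.8% of all genes. However, 3 were lower with a common total per library and 1 with a common 75th percentile, beside 6317 and 4142 of all 13601 genes.

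The factors that assemble mitoribosomes, such as helicases, GTPases and rRNA methyltransferases, were called higher about as often as all genes in injured FAPs against FAPs. After injury 7 of 27 were higher and 4 lower against FAPs, where 24.9% and 27.7% of all tested genes were, with a median log2 fold change of 0.16. The rRNA methyltransferase Mrm3 (1.55) and the RNA-binding Fastkd2 (1.26) rose most, and the methyltransferase Mrm1 (−1.17) and Mettl17 (−1.06) fell most. Mrm3 was at 35.2 and 66.8 in FAPs and 149, 133 and 149 in injured FAPs, and Mrm1 at 186 and 197 in FAPs and 80.8, 78.3 and 95.3 in injured FAPs, each with no overlap. ASCs differed from FAPs too, where 4 of 27 were higher and 11 lower (median −0.39), beside 23.4% and 23.8% of all genes. The counts were 1 and 18 with a common total (median −0.94), 2 and 13 with a common 75th percentile and 5 and 4 with quantile normalization (median −0.04). Over all 13601 genes they were 1592 and 6317, 2452 and 4142, and 3047 and 3004 in that order, also for the lists that follow. In ASCs Mrm3 (1.70) and Fastkd5 (1.06, uncalled with a common total) rose most, and the rRNA endonuclease Ybey (−1.72) and Mrm1 (−1.35) fell most. Against ASCs 13 of 27 were higher and 0 lower after injury (median 0.48), beside 25% and 25.8% of all genes, led by Ybey (1.53) and the GTPase Gtpbp10 (1.498). The tool edgeR also called 0 lower and DESeq2 1, and quantile normalization gave 9 higher and 1 lower and a common total 22 and 0. All genes had 3421 higher and 3401 lower with quantile normalization and 7378 and 1692 with a common total, also for the lists that follow.

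Translation factors of mitochondria come next. After injury 6 of 16 were higher and 1 lower against FAPs (median 0.43), beside 24.9% and 27.7% of all tested genes. Tufm, the elongation factor that brings tRNA, was at 661, 843 and 620.1 in ASCs, 752 and 653 in FAPs and 2087, 2149 and 2114 in injured FAPs. Injured FAPs were far above both other groups, which overlapped (1.59, adjusted p = 5.00e-06). Gfm1, the translocation factor, rose by 1.42, and the initiation factor Mtif3 fell by 1.13. Mtif3 was at 27.7, 71.4 and 52.7 in ASCs, 197 and 159 in FAPs and 67.5, 98.4 and 77.8 in injured FAPs, with FAPs the highest. Between ASCs and FAPs 1 of 16 were higher and 6 lower (median −0.39), beside 23.4% and 23.8% of all genes. A common total gave 0 and 11 (median −0.96), a common 75th percentile 1 and 7, and quantile normalization 1 and 3 (median −0.18). Slirp, which steadies mitochondrial mRNA, rose (0.92, uncalled with a common total), and Mtif3 (−1.89) and Taco1 (−1.29), an activator for a cytochrome oxidase subunit, fell most. Against ASCs 10 of 16 were higher and 0 lower after injury (median 0.91), beside 25% and 25.8% of all genes, with Taco1 (2.11) and the release factor Mtrf1 (1.61) at the top. A common total gave 16 and 0 there, quantile normalization 8 and 0, and edgeR and DESeq2 also called 0 lower.

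A list of 19 genes covers mitochondrial transcription and RNA processing, and also DNA replication through Polg, Polg2, Twnk and Ssbp1. Of these 19 genes 8 were higher and 2 lower in injured FAPs against FAPs (median 0.32), beside 24.9% and 27.7% of all tested genes. The polynucleotide phosphorylase Pnpt1 (1.49) and the tRNA 3′ processing enzyme Elac2 (1.13) rose most. The terminator protein Mterf1a (−1.89) and the DNA polymerase subunit Polg2 (−1.52) fell most. ASCs, against FAPs, had 5 higher and 4 lower (median 0.10), beside 23.4% and 23.8% of all genes. The split was 1 and 7 with a common total, 3 and 5 with a common 75th percentile and 5 and 2 with quantile normalization. Trmt10c, of the tRNA 5′ processing complex, was at 823, 485 and 521 in ASCs, 164 and 128 in FAPs and 209, 230.2 and 270.0 in injured FAPs. ASCs were far above the rest with no overlap, so Trmt10c rose in ASCs (2.02) and was lower in injured FAPs than in ASCs (−1.33). Elac2 also rose in ASCs (0.91, uncalled with a common total), and Mterf1a (−2.84) and Mterf2 (−2.002, uncalled with quantile normalization) fell most. Both had low values in ASCs, where the 1 added before the log weighs on the size, and a common total gave −3.28 and −2.46. Injured FAPs, against ASCs, had 7 genes higher and 2 lower (median 0.48), beside 25% and 25.8% of all genes, with Tefm (1.39) and Ssbp1 (1.26) highest and Tfb2m (−0.70, −0.01 with a common total) lower beside Trmt10c. A common total gave 13 and 1.

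Enzymes that charge mitochondrial tRNA gave 9 higher and 2 lower of 19 in injured FAPs against FAPs (median 0.52), beside 24.9% and 27.7% of all tested genes. Yars2 for tyrosine rose (1.37), and Ears2 for glutamate (−0.98) and Hars2 for histidine (−0.67, uncalled with a common total) fell. ASCs, against FAPs, had 2 higher and 5 lower (median −0.37), beside 23.4% and 23.8% of all genes. This became 0 and 14 with a common total, 1 and 10 with a common 75th percentile and 2 and 3 with quantile normalization. The counts over all 13601 genes were 1592 and 6317, 2452 and 4142, and 3047 and 3004 in that order. Yars2 (1.03) and Fars2 for phenylalanine (0.75) rose, both uncalled with a common total and Fars2 with a common 75th percentile, and Pars2 for proline (−2.76) and Hars2 (−1.05) fell most. Pars2 had low values in ASCs, so the added 1 weighs on its changes against them, and a common total gave −3.21. Against ASCs 11 were higher after injury and 0 lower (median 0.85), beside 25% and 25.8% of all genes, Pars2 among them (2.22). A common total gave 17 and 0, and edgeR and DESeq2 called 0 lower. The genes of the mitochondrial genome are not in the table.

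Regulators of nuclear genes for mitochondria were described from a list of 10, of which 9 were tested. Against FAPs, injured FAPs had 2 higher and 1 lower (median 0.21), where 24.9% and 27.7% of all tested genes were. Gabpb1, a partner of the ETS factor GABPA, was at 821, 668 and 757 in ASCs, 318 and 360.3 in FAPs and 764, 638 and 735 in injured FAPs. Myc, a driver of ribosome production, was at 35721, 25500.0 and 31148 in ASCs, 6473 and 5426 in FAPs and 12853, 11025 and 9819 in injured FAPs. FAPs were lowest for both, and ASCs stood above injured FAPs for Myc and overlapped them for Gabpb1. Gabpb1 (1.07) and Myc (0.91) rose in injured FAPs, and the coactivator Ppargc1a fell (−1.58, uncalled with quantile normalization). In ASCs against FAPs 3 were higher and 2 lower (median 0.01), beside 23.4% and 23.8% of all genes: Myc (2.36), Gabpb1 (1.14) and Pprc1 (0.94) rose, with Gabpb1 and Pprc1 uncalled under a common total and Pprc1 under quantile normalization, and Ppargc1a (−2.66) and Ppargc1b (−2.11) fell. With a common total 1 was higher and 4 lower. Against ASCs, Ppargc1b was higher in injured FAPs (1.96) and Myc (−1.45) and Pprc1 (−0.64, 0.05 with a common total) lower, beside 25% and 25.8% of all genes, with a median of 0.20; a common total gave 7 higher and 1 lower, and quantile normalization 1 and 1. Ppargc1a had values of 5.27, 3.40 and 6.28 in ASCs, close to that of 3 reads.

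Genes used as gauges of mitochondrial mass, for porins, import, cristae and matrix chaperones, were mostly higher in injured FAPs, like the members. Against FAPs 13 of 14 were higher and 0 lower, where 24.9% and 27.7% of all tested genes were, with a median log2 fold change of 1.33 beside 0.81 over the members. The matrix chaperones Hspd1 (2.40) and Hspa9 (2.05) rose most. Hspd1 was at 3217, 3195 and 2649 in ASCs, 1909 and 2007 in FAPs and 9456, 10249 and 11306 in injured FAPs, where all 3 libraries stood far above the rest. In ASCs against FAPs 6 of 14 were higher and 0 lower (median 0.52), beside 23.4% and 23.8% of all genes, against 2 and 1 with a common total (median −0.05) and 3 and 0 with a common 75th percentile. Hspa9 (1.65) and Tomm20 (1.25) rose most there. In injured FAPs against ASCs 10 of 14 were higher and 0 lower (median 0.82), beside 25% and 25.8% of all genes and 14 and 0 with a common total, led by Hspd1 (1.78) and the porin Vdac1 (1.31). The counts of 0 lower by limma were 0 by edgeR and DESeq2 too.

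Cytosolic ribosomal proteins, 85 genes in the table of which 80 were tested, are the closest list by function, and were chosen for comparison after earlier values were seen. After injury 78 were called higher than in FAPs and 0 lower (the 0 by edgeR and DESeq2 too; median 1.25; all genes 24.9% and 27.7%), beside 0.81 for the mitochondrial ones. Next, 80 were higher in ASCs than in FAPs and 0 lower (median 1.11; all genes 23.4% and 23.8%), beside 0.04, though only 34 were called higher with a common total (median 0.54) and 42 with quantile normalization. In injured FAPs against ASCs 4 were higher and 1 lower (median 0.15; all genes 25% and 25.8%), beside 0.78, but 68 were higher with a common total and 50 with quantile normalization. Under each scaling the median of the cytosolic list in ASCs lay above that of the mitochondrial one, and no test of the difference between the lists was made.

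**Figure D4:**
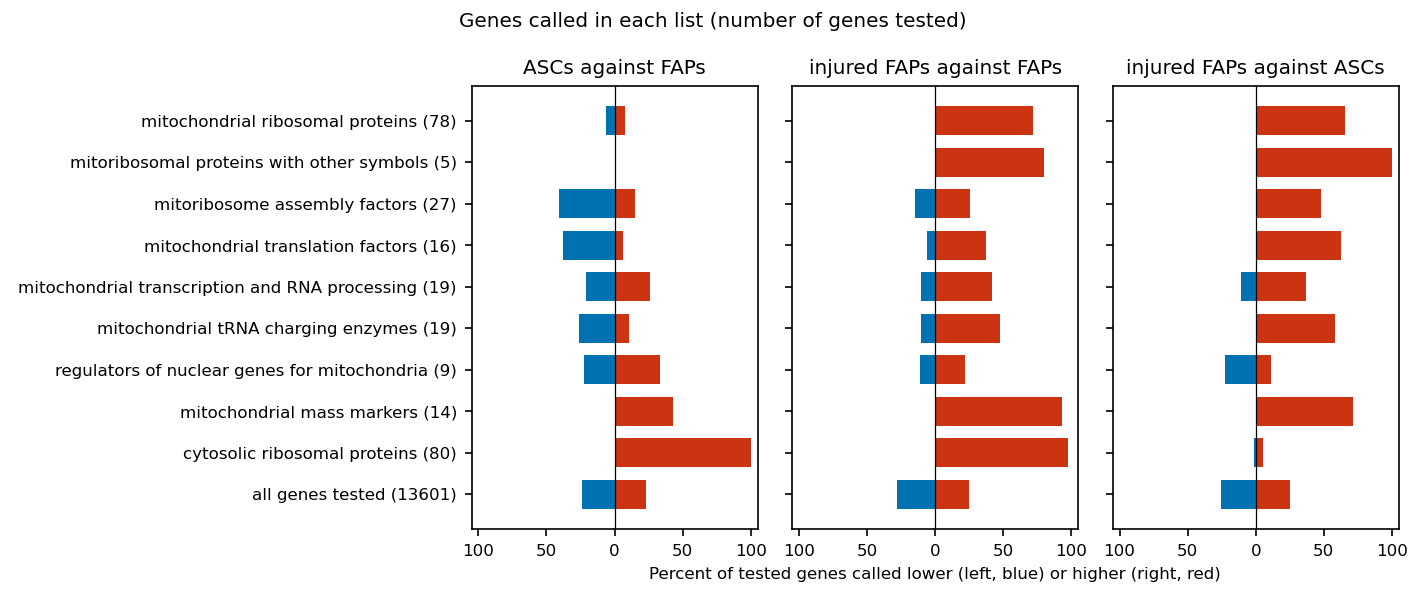
Percent of the tested genes of each list called higher (red, right) and lower (blue, left) in the 3 comparisons, with the number of genes tested in brackets and all tested genes at the bottom. In injured FAPs against FAPs 56 of 78 mitochondrial and 78 of 80 cytosolic ribosomal protein genes are higher. In ASCs against FAPs the counts are 6 and 80 on the deposited scale, and 1 and 34 with a common total per library, where 1592 of all 13601 genes are higher.

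The members share features that their names do not use. Their transcripts were short, with a median of 1302 bases against 3202.5 over 12864 tested protein-coding genes, and their GC content was alike (50.01% and 50.4%). They are spread over 17 chromosomes, with 11 on chromosome 11, 8 on chromosome 17 and 7 on chromosome 6. Exons of another gene overlapped those of 26 members (33.3%, against 30.4% of all), among them Mrpl18, Mrps18b, Mrps27 and Mrpl49. The strand setting of the counting is not given in the sources used here, so the values of these members may hold reads of their neighbours. Pseudogenes named after Mrpl23, Mrpl48 and Mrps36, 5 in all, are annotated and 0 of them are in the table, so reads from such copies are uncertain. Across the 78 genes the log2 fold change in injured FAPs against FAPs had a Spearman rho of −0.0569 with the mean value, 0.136 with transcript length and −0.259 with GC content, given as descriptions with no test.

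Many members start next to another gene on the other strand, as in a shared promoter. By GENCODE starts, a protein-coding gene began within 1 kb (1000 bases) in the opposite direction for 18 members (23.1%), against 9.73% of tested protein-coding genes. Of these neighbours 17 were tested. After injury 14 of those members were higher than in FAPs and 0 lower (median 0.92), while 7 neighbours were higher and 4 lower (median 0.54). Of all tested genes 24.9% were higher and 27.7% lower, against those 7 and 4 of 17 neighbours. In ASCs against FAPs 3 members were higher and 2 lower, and 2 neighbours were higher and 6 lower, beside 23.4% and 23.8% of all genes. With a common total 0 neighbours were higher and 11 lower, beside 1592 and 6317 of all 13601 genes. A common 75th percentile gave 1 and 8 (all genes 2452 and 4142), and quantile normalization 3 and 2 (all genes 3047 and 3004). The pairs that follow were named after their values were seen. Mrps18b and Ppp1r10, which encodes a regulator of protein phosphatase, start 45 bases apart, and Mrps18b rose in injured FAPs (1.53) while Ppp1r10 fell (−1.31, from a mean of 6619 to 2653). Mrpl50 (1.16) and Zfp189 (−1.26), 83 bases apart, and Mrpl2 (0.87) and Klc4 (−1.52), 207 bases apart, also went opposite ways.

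Other pairs moved together. Mrpl32 (1.15) and Psma2 (1.23), a proteasome subunit gene 75 bases away, both rose in injured FAPs, as did Mrpl30 (1.06) and Mitd1 (1.04), 66 bases apart. Next to Mrpl51 (0.92) and Mrpl57 (0.75) the cell division genes Ncapd2 (3.15) and Ska3 (5.85) rose far more. Ska3 had a mean of 8.94 in FAPs and 341 in injured FAPs, and Ncapd2 of 358 and 3080.0. In ASCs Mrps27 (−0.62) and Ptcd2 (−1.02), 81 bases apart, both fell, though the call of Mrps27 was lost in the settings given above. Mrpl49 fell in ASCs (−0.82) while Fau, a cytosolic ribosomal protein gene 59 bases away, rose (0.92, uncalled with a common total or quantile normalization). These pairs too were named after their values were seen.

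**Figure D5:**
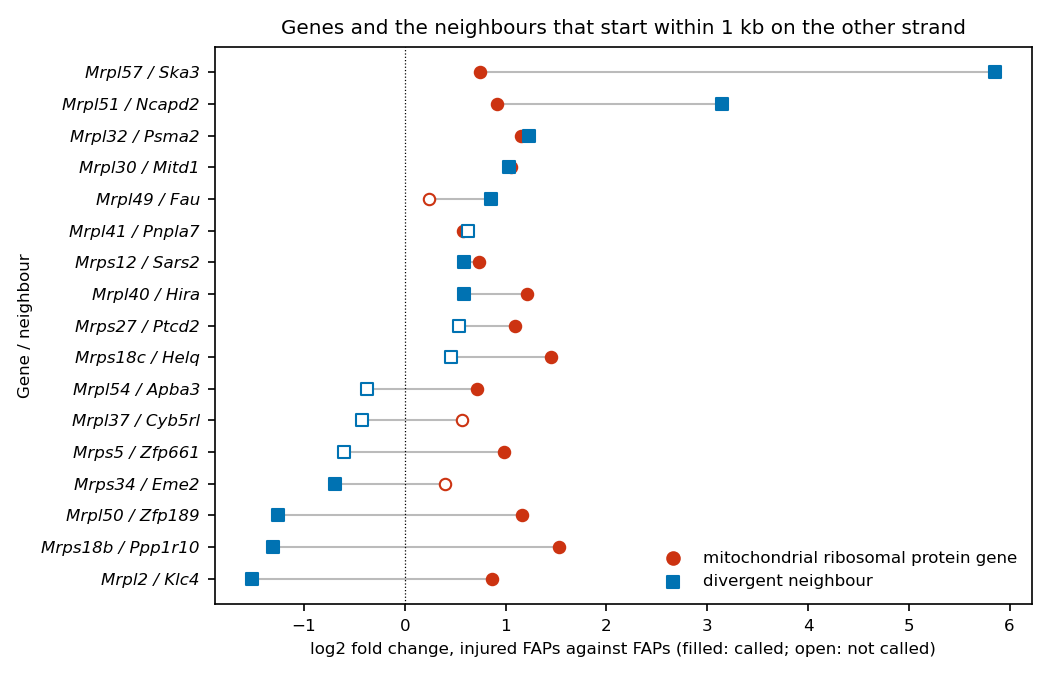
Log2 fold change in injured FAPs against FAPs of 17 members (red circles) and of the protein-coding neighbours that start within 1 kb on the other strand (blue squares), joined by a line for each pair, with filled symbols for called genes. The members have 14 calls, all higher, and the neighbours 7 higher and 4 lower, from −1.52 for Klc4 to 5.85 for Ska3.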

How the data were processed

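RNA of sorted cells was sequenced in 9 libraries of 4 groups, named by the sample labels. Upstream tools were fastq_illumina_filter 0.1 for read filtering, FastQC 0.11.9 for quality, HISAT2 2.2.1 for alignment on mm10, featureCounts (Subread 2.0.1) for gene counts and DESeq2 1.34.0. What the authors deposited is a signal for each gene, labelled as normalized counts, and the sources used here do not state how it was scaled. Dividing out a size factor turned 100% of them into whole reads in each of 9 libraries (tolerance 0.1 read). That factor was 0.980 to 1.01 times the median-of-ratios factor computed here. The table also has 2 empty columns. Of 26214 genes, 24918 matched GENCODE M21, which gave positions, transcript lengths, GC content and neighbours; promoters came from RefSeq.

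On log2(value + 1), limma 3.58.1 (R 4.3.3) estimated group means from 8 libraries with 5 residual degrees of freedom and a prior variance that follows the level. Its p-values were adjusted after Benjamini and Hochberg over the 13601 genes that average at least 10. It called 6416 genes in ASCs against FAPs, 7153 in injured FAPs against FAPs and 6909 in injured FAPs against ASCs. On the recovered reads edgeR 4.0.16 called 6450, 7303 and 7000, and DESeq2 1.42.0 called 6412, 7227 and 6865. All 3 methods were also run on simulated data, and the outcome is not given here. Floors of 3 reads cover counting error only.

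The members and lists were chosen with earlier results of these data known, and lists are described by counts and medians with no test over a list. Named members are, for each comparison, up to 6 rises and 6 falls of largest size among called members averaging at least 100 whose groups do not overlap, and the 3 uncalled members of highest mean; the 5 highest and 3 lowest levels per kilobase; members called in opposite directions against FAPs; Mrps18a, Mrps18b, Mrps18c, Mrps30, Mrpl12, Mrpl58 and Mrps36; the 5 proteins outside the name rule; and up to 2 rises and 2 falls per pathway list. Further genes were picked once values had been seen. Alternatives covered the pseudocount, the filter, the scaling, the thresholds, the groups in the fit, a replicate block, each library left out and the tool. Some items are not reported here. The CD31+CD45+ library entered no test, and 9 members without a RefSeq promoter entered no promoter count: Mrpl15, Mrps28, Mrpl19, Mrps35, Mrpl4, Mrpl54, Mrpl38, Mrpl13 and Mrps34.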

Additional observations from a re-analysis of the deposited data

Results flagged for a closer look

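The CD31+CD45+ library of injured quadriceps, which no comparison used, held the members at levels above some of the other libraries. For 34 of the 78 genes its value was higher than in both FAP libraries, and for 17 it was lower than in both. For 2 genes it was higher than in all 8 other libraries. Mrpl44 was at 184 there and at 46.1 to 153 elsewhere, and Mrpl24 at 1055 there and at 761 to 944 elsewhere. For 11 genes it was the lowest of the 9, and for 72 it lay below all 3 injured FAP libraries. These counts cover the members only, with no share of all tested genes beside them. This library has no replicate, and no difference was tested.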

How the results depend on the processing

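In ASCs against FAPs the counts of 6 members higher and 5 lower moved most. They were 1 and 34 with a common total per library, 13 and 3 with quantile normalization, 3 and 14 with a common 75th percentile, 17 and 14 with no fold change threshold and 6 and 3 when the fit held only the compared groups. Counts of all genes under these scalings are given with that comparison above. The median moved from 0.04 to −0.53 with a common total, 0.17 with quantile normalization and −0.17 with a common 75th percentile. For the total and the percentile the rescaling itself shifts all genes, to −0.56 and −0.20; for the others the cause was not tested. With the replicate block there were 10 higher and 3 lower there, 57 and 0 after injury against FAPs, and 51 and 0 after injury against ASCs. After removing group means, libraries of the same number in different groups correlated by −0.05 to 0.04, and those of different numbers by −0.12 to 0.12. No shared deviation by replicate number was thus seen. The deviations of the FAP libraries mirror each other, so each correlation with them appears with both signs. These values cannot decide whether libraries of the same number are paired, for example by animals or day, which was not tested. Leaving out each library gave 4 to 12 higher, 1 to 12 lower and medians of −0.08 to 0.08, from fewer samples; a lone FAP library is then assumed to vary like the other groups.

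In injured FAPs against FAPs 1 member was lower with no fold change threshold. The median was 0.94 with a common total and 0.71 with a common 75th percentile. Leaving out each library gave 48 to 57 higher, 0 lower and medians of 0.80 to 0.83. In injured FAPs against ASCs 77 were higher with a common total, beside 7378 of all 13601 genes, and the median of the members was 1.47. That median was 0.89 with a common 75th percentile and 0.66 with quantile normalization. Leaving out each library gave 49 to 57 higher, 0 lower and medians of 0.74 to 0.87. Log2 fold changes of named members changed direction past a threshold in 0 settings. Labels of named members against the thresholds were as follows. A value moved where its sign changed with no call in either setting, and was weaker or stronger where a call was lost or gained. For ASCs and FAPs, of values outside leaving out libraries 262 stayed the same, 20 moved, 17 became weaker and 13 stronger, and on leaving out libraries 168, 9, 14 and 1. After injury against FAPs 282 stayed, 2 were weaker and 2 stronger, then 173 stayed and 3 were weaker. After injury against ASCs 255 stayed, 1 moved, 2 were weaker and 15 stronger, then 162 stayed, 3 were weaker and 3 stronger. At depths of 24052508 to 27481573 reads each member had at least 35 reads in each tested library. The effect of depth on the members or on low neighbours such as Ska3 was not tested.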
